A study of Mus musculus with 17 samples.

Results

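The 9 genes described here are the 4 neurofilament genes Nefl, Nefm, Nefh and Ina, the sodium channel pore subunit genes Scn1a and Scn8a, and the sodium channel beta subunit genes Scn2b, Scn3b and Scn4b. They were chosen by name, with earlier results of these data known. All 9 were found once in both deposited tables, among 52636 genes counted in single cells and 28692 genes counted in spots of tissue sections. The series profiled the anterior thalamic nuclei of wild-type (WT) B6 mice. Cells were dissected from acute slices of these nuclei, dissociated and picked by hand into plates, and the neurons used here came from animal 1 (101 cells), animal 2 (317 cells) and animal 3 (459 cells). Flash-frozen brains, stained for NeuN and DAPI, gave 3 Visium sections: anterior section 5, posterior section 2 and posterior section 6. The labels name no transgene or treatment, give neither age nor sex, and do not say whether the sections came from separate animals.

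Neurofilaments are intermediate filaments of the axon. Nefl forms the core of the polymer, Nefm and Nefh add the long side arms that space neighbouring filaments, and Ina (alpha-internexin) is a further subunit in central neurons; large myelinated axons are known for carrying many of them. Voltage-gated sodium channels carry the rising phase of the action potential. Scn1a and Scn8a encode the pores Nav1.1 and Nav1.6, which cluster at the axon initial segment and the nodes of Ranvier, and the beta subunits are single-pass membrane proteins that change channel gating and placement. The anterior thalamic nuclei send myelinated axons to cingulate and retrosplenial cortex, and neurons of the anterodorsal nucleus are known for head-direction firing.

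Total counts in neurons were 6076566, 3106802 and 28690065 in animals 1 to 3, with median counts per cell of 49798, 8872 and 50553. The sections held 13788407, 26032042 and 18582120 counts for sections 5, 2 and 6. Cells and spots were grouped by expression with the 9 genes and their relatives left out of the grouping. The neurons fell into 4 clusters, named here by a marker gene each: a C1ql2 cluster of 42 cells, a Col27a1 cluster of 438, a Tnnt1 cluster of 238 and a Calb2 cluster of 159, beside 27 oligodendrocyte-like cells. C1ql2, a C1q-like synaptic gene known as a marker of the anterodorsal nucleus, averaged 1206 ± 228 CPM (the count divided by all gene counts of a sum and scaled to 1000000; SD, n = 3 animals) in the C1ql2 cluster, against 15.5 ± 5.66 in the Col27a1 cluster and less in the others. All 4 clusters carried the fixed thalamic neuron markers, with 2748 to 6027 CPM summed over 10 genes in each animal. One group of 659 spots was highest of all 12 spot groups for 10 of 10 thalamic markers, and it is called the thalamic region. It divided again into subregions led by C1ql2 (41 spots), by Itga4 and Npsr1 (207), by Tnnt1 (148), by Oxt, Avp and Gda (128) and by Oprk1 (127). A further 8 spots were too few to test. The subregion led by Itga4 and Npsr1 is called the Col27a1 subregion. Col27a1 was among its 10 leading genes, but not among the 10 of the Col27a1 neuron cluster, which Acta2 and Ccdc141 led. Itga4, Npsr1 and Car4 were among the leading genes of both. Spot barcodes come from a common list, and 2393 of 4182 occurred in more than 1 section.

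The 3 genes of the neurofilament triplet were higher in C1ql2 neurons than in the mean of the other 3 neuron clusters, each by about the same factor. Nefl (ENSMUSG00000022055, chromosome 14, 68083863 to 68089095), in GRCm38.p6 like all positions here, encodes the light chain. Its level in the sums of animals 1, 2 and 3 was 992, 1487 and 1080.4 CPM in the C1ql2 cluster, against 334, 683 and 534 CPM in the Col27a1 cluster, 407, 457 and 408 CPM in the Tnnt1 cluster and 550.4, 669 and 702 CPM in the Calb2 cluster. All 3 animals of the C1ql2 cluster lay above all 9 sums of the other clusters. The C1ql2 sums of animals 1, 2 and 3 held 6, 9 and 27 cells. The log2 fold change was 1.15 ± 0.14 (SE, adjusted p = 9.80e-05, edgeR quasi-likelihood test, Benjamini-Hochberg over 12698 genes). Nefm (ENSMUSG00000022054, chromosome 14, 68119545 to 68125004), its neighbour 30449 bases away, encodes the medium chain and had 1151, 3142 and 2830.4 CPM in the C1ql2 cluster, against 1112, 1558 and 1418 CPM in the Col27a1 cluster, 525, 1007 and 1039 CPM in the Tnnt1 cluster and 893, 1109 and 897 CPM in the Calb2 cluster. Animals 2 and 3 were far above every other cluster, and animal 1 overlapped the range of the Col27a1 cluster. The log2 fold change over the other clusters was 1.08 ± 0.16 (adjusted p = 4.49e-04). Nefh (ENSMUSG00000020396, chromosome 11, 4938754 to 4948064) encodes the heavy chain and showed a different order. It had 619.8, 564 and 578 CPM in the C1ql2 cluster, against 431, 654 and 544 CPM in the Col27a1 cluster, 113, 293 and 242 CPM in the Tnnt1 cluster and 127, 315 and 213 CPM in the Calb2 cluster. The C1ql2 and Col27a1 ranges overlapped, and both lay above the Tnnt1 and Calb2 ranges. Against the mean of the other clusters the log2 fold change was 1.08 ± 0.19 (adjusted p = 0.00214).

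Of the 9 genes, 4 passed the threshold in the C1ql2 cluster (the triplet and Scn4b, all higher), against 10.5% of all genes tested in that comparison. The median log2 fold change was 0.23 over the 9 genes and -0.28 over all genes. Because the 9 genes were chosen with earlier results of these data known, counts of calls against the share of all genes are descriptive throughout. The clusters were built from other genes of the same cells, so these p-values describe groups that expression had already separated, as do those of the spot regions and subregions given further on. Leaving out each animal in turn kept all triplet calls in the C1ql2 cluster. The 5 highest of its 42 cells held 31.0% of its Nefl counts, 32.4% of its Nefm counts and 39.3% of its Nefh counts. C1ql2 cells had a median of 112938 counts, against 25299.5, 25638 and 33662 in the Col27a1, Tnnt1 and Calb2 clusters. With every cell thinned to 5000 counts, adjusted p was 1.02e-06 for Nefl, 2.29e-06 for Nefm and 0.0551 for Nefh, so the Nefh call was lost.

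Pairs of clusters gave the size of each step. C1ql2 neurons exceeded Col27a1 neurons for Nefl by 1.20 ± 0.18 (adjusted p = 0.00117) but not past the threshold for Nefm (0.70 ± 0.20, adjusted p = 0.0594, or 1.56e-10 without animal 1) or Nefh (0.17 ± 0.24, adjusted p = 0.735), with 2 of 9 genes called against 5.99% of all genes. Over Tnnt1 neurons the triplet rose by 1.37 for Nefl, 1.34 for Nefm and 1.49 for Nefh on the log2 scale (adjusted p at most 0.00119, 5 of 9 genes called against 13.9% of all genes). Over Calb2 neurons the same genes rose by 0.89, 1.21 and 1.59 (adjusted p at most 0.0118, 4 of 9 called against 3.36%). Without animal 2 the Calb2 step lost its call for Nefl (adjusted p = 0.243) and Nefm (0.165), and without animal 3 for Nefl (0.114), Nefm (0.123) and Nefh (0.059).

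**Figure D1:**
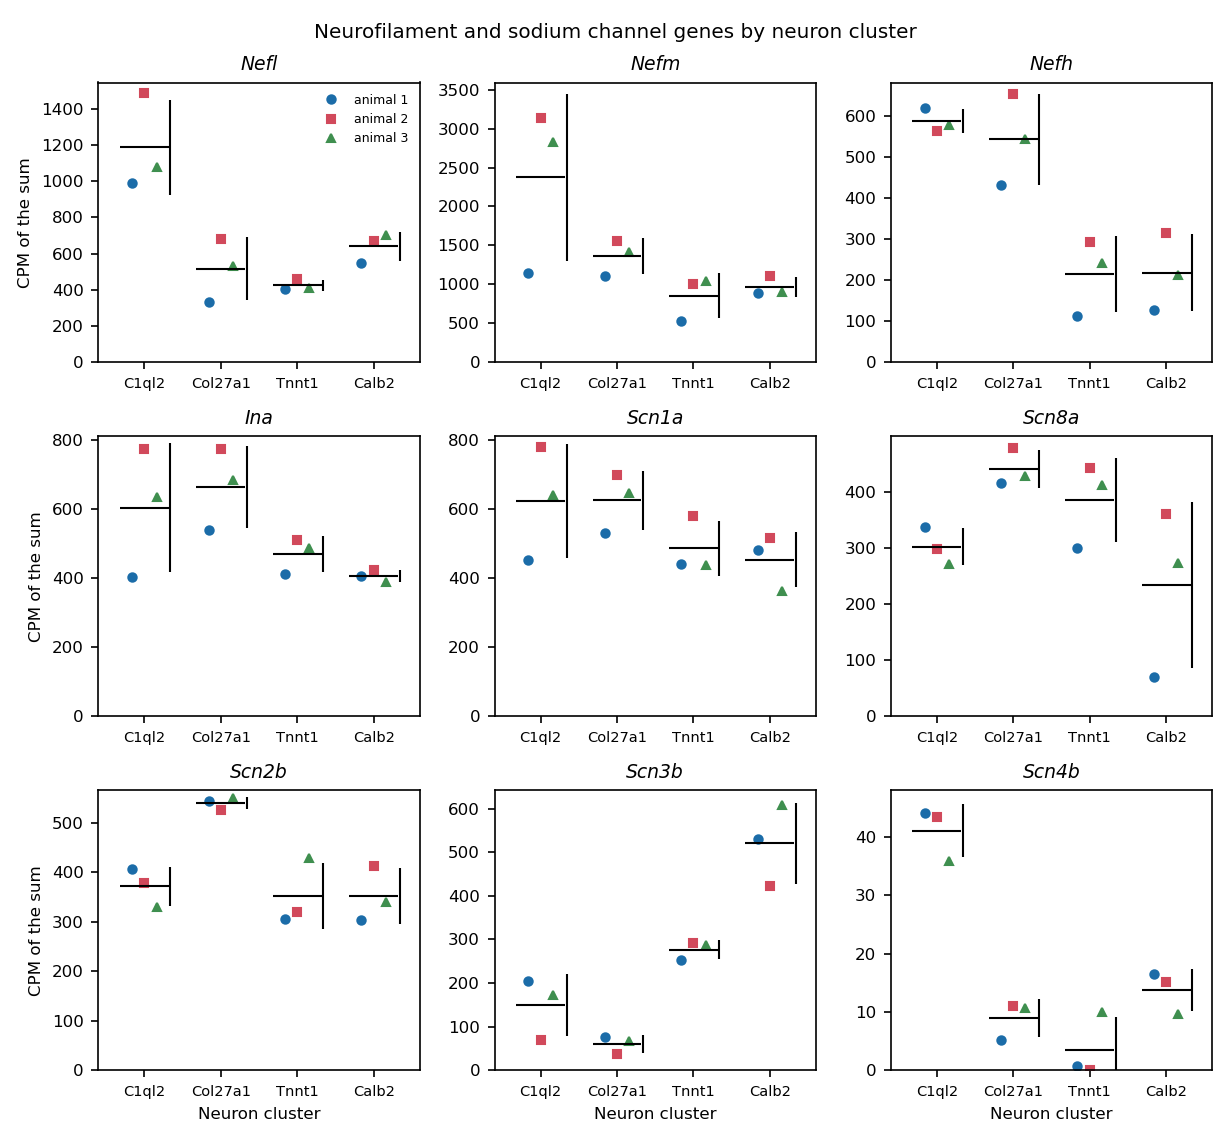
Level of each gene in CPM (y axis, linear from 0) in the summed counts of each animal (points) and neuron cluster (x axis); horizontal lines are means and vertical lines SD over 3 animals. Nefl is highest in the C1ql2 cluster in all 3 animals, Nefh is high in both the C1ql2 and Col27a1 clusters, and Scn3b is highest in the Calb2 cluster and lowest in the Col27a1 cluster.

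For Nefh the Tnnt1 and Calb2 means were level, at 216 and 218 CPM. Tnnt1 neurons had the lowest means of Nefl and Nefm, with ranges that overlapped the next cluster. All 3 triplet genes fell there relative to the mean of the other clusters: Nefl by 0.67 ± 0.15 (adjusted p = 0.0136), Nefm by 0.71 ± 0.17 (0.0212) and Nefh by 0.91 ± 0.21 (0.0166), all in 3 of 3 animals. Together with Scn3b, which rose, 4 of 9 genes were called, against 8.04% of all genes. These calls did not hold without animal 2, where adjusted p was 0.205, 0.199 and 0.0883, or without animal 3, where it was 0.209, 0.0879 and 0.124. In Calb2 neurons, Nefh fell by 1.03 ± 0.21 (adjusted p = 0.0248) while Nefl was at -0.03 ± 0.15 (0.951) and Nefm at -0.53 ± 0.17 (0.192, or 5.73e-09 without animal 1), and 2 of 9 genes were called, against 1.55% of all genes. The Nefh call there had an adjusted p of 0.106 without animal 2 and 0.342 without animal 3. In Col27a1 neurons, Nefh rose by 0.85 ± 0.19 (adjusted p = 0.041; 0.27 without animal 2 and 0.45 without animal 3), and 2 of 9 genes were called, against 1.24% of all genes. In direct pairs, Nefh fell in Tnnt1 neurons relative to Col27a1 neurons by 1.32 ± 0.25 (adjusted p = 0.0185, 2 of 9 genes called against 0.819%) and in Calb2 neurons relative to Col27a1 neurons by 1.41 ± 0.25 (0.00892, 2 of 9 against 1.46%). Both steps lost their call without animal 2 (0.17 and 0.0702) and without animal 3 (0.286 and 0.232). Against the mean of the other clusters, Nefh also lost its Calb2 and Col27a1 calls in regrouped cells. This held with clusters from a random part of the counts, tested on the rest, and with the 9 genes kept in the grouping.

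Counts of the subunits therefore stood in different proportions in different neuron clusters. Per sum, counts of Nefh divided by counts of Nefl were 0.51 ± 0.12 in C1ql2 neurons, against 1.09 ± 0.18 in Col27a1, 0.50 ± 0.20 in Tnnt1 and 0.34 ± 0.12 in Calb2 neurons (SD, n = 3 animals). The lowest ratio of the Col27a1 cluster, 0.957 in animal 2, lay above the highest of the other neuron clusters, 0.641 in animal 2 of the Tnnt1 cluster. Counts of Nefm over Nefl were 1.96 ± 0.74, 2.76 ± 0.53, 2.01 ± 0.65 and 1.52 ± 0.21 in the same order of clusters, and all ranges overlapped except that Col27a1 lay above Calb2. In oligodendrocyte-like cells Nefh over Nefl was higher than in any neuron cluster on average, at 1.45 ± 0.37 (SD, n = 2 animals). In thalamic spots Nefh over Nefl was 0.56 ± 0.09 in the C1ql2 and 0.52 ± 0.09 in the Col27a1 subregion (SD, n = 3 sections). These 2 ranges overlapped, so the order of the C1ql2 and Col27a1 clusters was not seen in spots. These ratios compare counts, not molecules per length, so only their change between groups is read here.

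Ina (ENSMUSG00000034336, chromosome 19, 47014681 to 47025327) encodes alpha-internexin. It had 405, 775 and 635 CPM in C1ql2 neurons, against 539, 775 and 685 CPM in Col27a1, 413, 512 and 488 CPM in Tnnt1 and 405, 425 and 388 CPM in Calb2 neurons. The Col27a1 cluster was highest or level with the highest in animals 1 to 3, and the C1ql2 range covered nearly the whole scale. No cluster passed the threshold for Ina against the mean of the others, with adjusted p from 0.111 to 0.701. Ina passed in Col27a1 neurons with no low-count filter (0.0261) and in Calb2 neurons in DESeq2 (0.0234) and after thinning (0.0498). Without animal 1, which had 6 C1ql2 cells and 13 Calb2 cells, Ina was higher in C1ql2 neurons (0.43, adjusted p = 0.00465) and Col27a1 neurons (0.50, 0.00133) and lower in Calb2 neurons (-0.69, 2.73e-05).

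Scn1a (ENSMUSG00000064329, chromosome 2, 66270781 to 66440837) encodes Nav1.1, the channel of Dravet syndrome in humans. Its levels were 452, 781 and 643 CPM in C1ql2 neurons, against 531, 698 and 647 CPM in Col27a1, 443, 579 and 439.7 CPM in Tnnt1 and 482, 517 and 364 CPM in Calb2 neurons. Every neighbouring pair in the order of means (Col27a1, C1ql2, Tnnt1, Calb2) overlapped, and no cluster passed the threshold (adjusted p 0.308 to 0.705). Scn8a (ENSMUSG00000023033, chromosome 15, 100869863 to 101045938) encodes Nav1.6, the main pore of mature nodes. It had 337, 297 and 271 CPM in C1ql2 neurons, against 416, 478 and 428 CPM in Col27a1, 299.9, 443 and 413 CPM in Tnnt1 and 70.7, 360.0 and 272 CPM in Calb2 neurons, where the 13 cells of animal 1 stood far below the rest. No cluster passed for Scn8a either (adjusted p 0.222 to 0.841). Without animal 1, Scn1a was higher in C1ql2 neurons (0.47, adjusted p = 0.0023) and lower in Calb2 neurons (-0.58, 6.55e-04), and Scn8a was higher in Col27a1 neurons (0.43, 0.0232) and lower in C1ql2 neurons (-0.40, 0.0416). A p that misses the threshold does not show that the levels are equal: the standard errors of these fold changes were 0.15 for Scn1a in each comparison and 0.26 to 0.29 for Scn8a.

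The 3 beta subunit genes followed 3 different orders across the same clusters. Scn3b (ENSMUSG00000049281, chromosome 9, 40269216 to 40291618) encodes a beta subunit that binds the pore without a disulfide bond and is expressed early in development. Its levels were 530.4, 423 and 608 CPM in Calb2 neurons, 252, 291 and 286 CPM in Tnnt1 neurons, 205, 68.2 and 173 CPM in C1ql2 neurons and 76.8, 36.4 and 66.8 CPM in Col27a1 neurons. The Calb2, Tnnt1 and C1ql2 ranges did not overlap, while those of C1ql2 and Col27a1 did. In C1ql2 neurons the 5 highest of 42 cells held 50.6% of the Scn3b counts. Against the mean of the other clusters, Scn3b rose by 1.89 ± 0.20 in Calb2 neurons (adjusted p = 1.57e-04) and by 0.86 ± 0.21 in Tnnt1 neurons (0.0224), and fell by 2.27 ± 0.25 in Col27a1 neurons (3.01e-04). The Calb2 and Col27a1 calls held without each animal. The Tnnt1 call did not hold without animal 2 (log2 fold change 0.46, adjusted p = 0.457) or animal 3 (0.189). It was also lost with clusters from a random part of the counts, tested on the rest. Keeping the 9 genes in the grouping lost it too. The widest step was 3.11 ± 0.29 between Calb2 and Col27a1 neurons (adjusted p = 3.04e-05). Tnnt1 neurons exceeded Col27a1 neurons by 2.35 ± 0.28 (7.12e-04), and C1ql2 neurons exceeded them by 1.34 ± 0.28 (0.00989); without animal 3 these were at 0.0737 and 0.185. C1ql2 neurons fell by 1.78 ± 0.28 relative to Calb2 neurons (0.00216; 0.0764 without animal 3). Their difference from Tnnt1 neurons, -1.01 ± 0.28 (0.0272), was lost without animal 2 (0.417), without animal 3 (0.162) and after thinning (0.0542). In all, that difference lost its call in 7 of 12 alternatives, both regroupings among them. Between Calb2 and Tnnt1 neurons none of the 9 genes passed in edgeR (Scn3b 0.77 ± 0.27, adjusted p = 0.163), where 2.89% of all genes did. Of the 9, 3 (Nefl, Scn3b and Scn8a) had an unadjusted p under 0.05, and DESeq2 called 0. Without animal 1 those 3 passed (adjusted p = 4.67e-04, 0.00292 and 0.0272).

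Scn2b (ENSMUSG00000070304, chromosome 9, 45117876 to 45130070) encodes a beta subunit that is linked to the pore by a disulfide bond. It had 544, 526 and 550.1 CPM in Col27a1 neurons, against 407, 378 and 329.7 CPM in C1ql2, 306, 321 and 429 CPM in Tnnt1 and 303, 413 and 340.3 CPM in Calb2 neurons. The 3 Col27a1 values lay above all 9 others, which overlapped one another, but the test gave 0.59 ± 0.15 with an adjusted p of 0.0757 (0.00116 without animal 1). Scn4b (ENSMUSG00000046480, chromosome 9, 45138624 to 45154155) encodes the beta subunit known for resurgent sodium current in fast-firing neurons, and was sparse in these cells. In C1ql2 neurons it had 44.1, 43.4 and 35.8 CPM, against 5.23, 11 and 10.7 CPM in Col27a1, 0.683, 0 and 9.91 CPM in Tnnt1 and 16.5, 15.1 and 9.69 CPM in Calb2 neurons. The C1ql2 values lay above all others in each animal. The fitted change was 2.45 ± 0.74 with an adjusted p of 0.0486, just inside the threshold. The 155 counts behind it lay in 19 of 42 cells, with 63.2% in the 5 highest cells. The call was lost without animal 2 (0.289), without animal 3 (0.107), after thinning (0.114) and without cells that carried markers of another cell type (0.0545).

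Scn2b and Scn4b are neighbours, 8553 bases apart on chromosome 9 and on the same strand, and their promoters are shown because the pair followed unlike orders across clusters and regions. Both are from RefSeq in GRCm38.p6 and run 5′ to 3′ over 250 bases before to 50 bases after the start, in lower case, with matches to the motifs searched in capitals.
Scn4b promoter, chr9:45138374-45138673, plus strand: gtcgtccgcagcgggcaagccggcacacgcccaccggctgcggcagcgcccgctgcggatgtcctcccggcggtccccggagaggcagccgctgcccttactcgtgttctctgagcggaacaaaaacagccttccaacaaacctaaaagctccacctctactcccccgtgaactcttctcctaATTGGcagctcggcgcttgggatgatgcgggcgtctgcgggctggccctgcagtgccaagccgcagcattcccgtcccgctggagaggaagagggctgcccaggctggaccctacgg
Scn2b promoter, chr9:45117626-45117925, plus strand: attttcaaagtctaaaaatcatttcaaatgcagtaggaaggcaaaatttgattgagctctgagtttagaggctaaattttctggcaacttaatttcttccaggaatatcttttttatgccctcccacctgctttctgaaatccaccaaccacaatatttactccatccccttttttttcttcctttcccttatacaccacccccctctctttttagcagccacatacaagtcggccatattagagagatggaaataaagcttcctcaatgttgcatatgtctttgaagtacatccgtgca
The Scn4b window has 66.3% G or C and 26 CpG, against 38.3% and 2 CpG in the Scn2b window, and the median over 32851 promoters of this length was 52.7%. The motifs searched, on both strands, number 4. CCAAT is in 37.4% of all promoters of this table, the GC box GGGCGG in 35.7%, the TATA box TATAAA in 13.6% and the cyclic AMP motif TGACG in 20.8%. The Scn4b window had 1 match, a CCAAT read from the other strand, and the letters of the 4 motifs are not in the Scn2b window. Of the other 7 genes, promoters in the same table were found for Ina, Scn1a and Scn8a.

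Shares of cells with a count were also compared at equal depth. After thinning to 5000 counts, which left out 59 neurons of animal 2 and 2 of animal 3, Scn3b was found in 69.4% ± 6.81 of Calb2 neurons, 46.9% ± 13.2 of Tnnt1, 28.4% ± 5.66 of C1ql2 and 12.4% ± 4.13 of Col27a1 neurons (SD, n = 3 animals), and in 3.57% ± 5.05 of oligodendrocyte-like cells (n = 2 animals). Without thinning these were 83.8%, 57.4%, 52.5%, 21.4% and 10.7%. Scn4b was found in 23.5% ± 9.32 of C1ql2 neurons at equal depth, against 3.2% ± 2.85 of Col27a1, 0.469% ± 0.813 of Tnnt1 and 5.38% ± 2.04 of Calb2 neurons and no oligodendrocyte-like cell (46.3%, 8.98%, 4.76%, 9.6% and 7.14% without thinning). Nefh was found in 65.4% ± 2.14 of C1ql2 and 67.1% ± 13.7 of Col27a1 neurons, against 40.0% ± 22.5 of Tnnt1 and 32.5% ± 17.3 of Calb2 neurons (85.8%, 83.4%, 52.9% and 46.8% without thinning). Oligodendrocyte-like cells, which should lack it, had a Nefh count in 36.5% ± 11.2 at equal depth (36% without thinning), above the Calb2 share and within the spread of the Tnnt1 share. The same cells held 2159.7 to 2561 CPM of the 10 thalamic neuron markers, against 2748 to 6027 CPM in neurons. The part of background in their share was not tested. In the summed counts of animals 1, 2 and 3 (2, 11 and 14 cells) they had 5.31, 383 and 379.6 CPM of Nefh, and in animals 2 and 3 this was also above every Tnnt1 and Calb2 sum. Their median depth was 25264 counts, close to that of the Col27a1 and Tnnt1 clusters.

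**Figure D2:**
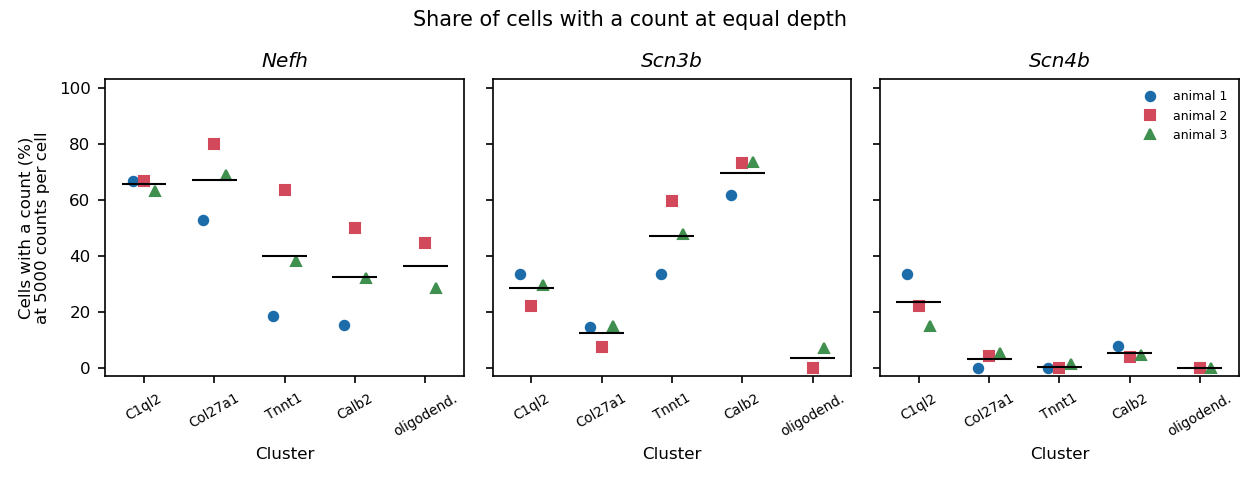
Share of cells with at least 1 count (y axis, percent) for Nefh, Scn3b and Scn4b in each cluster and animal (points, groups of at least 5 cells) after thinning every cell to 5000 counts; lines are means. Scn3b is found in most Calb2 neurons and few Col27a1 neurons, Scn4b mainly in C1ql2 neurons, and the Nefh shares of Tnnt1 and Calb2 neurons overlap that of oligodendrocyte-like cells.

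Other cell types were checked beside these results. Summed over 5 markers, endothelial genes were at 129, 43.4 and 198 CPM in C1ql2 neurons, against 24.8, 28.3 and 28.5 CPM in Col27a1, 21.2, 18.2 and 20.3 CPM in Tnnt1 and 11.8, 18.1 and 11.2 CPM in Calb2 neurons. Flt1 made up 121, 24.8 and 134 CPM of the C1ql2 sums, and 3, 3 and 1 of the 5 markers were at 0 there in animals 1, 2 and 3. The 8 GABA neuron markers summed to 712, 110.0 and 178 CPM in Calb2 neurons and at most 7.29 CPM in any other neuron sum. Gad1 and Gad2 were among the leading genes of the Calb2 cluster, in which 6 of 159 cells carried at least 3 of those markers. These 6 cells held 2.6% of its Scn3b counts, 9.34% of its Scn1a counts and 10.4% of its Nefh counts. Over the 9 genes their share ran from 1.12% for Scn4b to that of Nefh. Pericyte and smooth muscle markers (6), of which Acta2 led the Col27a1 cluster, summed to 7.84, 12.1 and 263 CPM in Col27a1 neurons, against 2.84, 6.2 and 10.1 CPM in C1ql2, 1.37, 7.29 and 2.32 CPM in Tnnt1 and 0, 0 and 119 CPM in Calb2 neurons. Oligodendrocyte markers (8) summed to 3.54, 27.1 and 338 CPM in Calb2 neurons and at most 87.6 CPM in any other neuron sum. Without the 35 neurons that carried at least 3 markers of another type, adjusted p was 6.22e-05, 2.48e-04 and 0.0259 for the triplet in C1ql2 neurons and 2.46e-04 for Scn3b in Calb2 neurons. The Nefh calls of the other clusters were lost in that setting, with log2 fold changes and adjusted p of 0.98 and 0.204 in Col27a1, -0.81 and 0.191 in Tnnt1 and -1.39 and 0.0936 in Calb2 neurons, as were the Nefh steps of Tnnt1 over Col27a1 neurons (0.214) and of Calb2 over Col27a1 neurons (0.0566). Calls of the 9 genes over the 4 clusters then numbered 8, against 12 with all neurons.

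Related genes from fixed lists moved as follows in C1ql2 neurons, where 10.5% of all 12698 genes were called (604 rose and 729 fell). The list counts were not tested against that share. Among axonal cytoskeleton and motor genes, 6 of 17 rose and 0 fell, with a median log2 fold change of 0.13, against -0.28 over all genes. Stmn3 and Stmn2, which encode microtubule-destabilizing stathmins, rose by 1.00 ± 0.10 and 0.69 ± 0.11 (adjusted p = 2.85e-05 and 7.75e-04), and the neuronal tubulin gene Tubb3 rose by 0.74 ± 0.09 (1.18e-04). Sncg, the gamma-synuclein gene, averaged 219.5 ± 188 CPM, against 11.9 ± 14.5 in Col27a1 neurons, 2.17 ± 3.76 in Tnnt1 and 0.0994 ± 0.172 in Calb2 neurons (adjusted p = 1.09e-06). Of these 4, Stmn2 alone lost its call without an animal, at 0.0516 without animal 3. Of genes of the initial segment and node, 0 of 15 rose and 2 fell, with a median log2 fold change of -0.44. The 2 that fell were Ank3, the ankyrin that holds sodium channels at the initial segment (-1.32 ± 0.24, adjusted p = 0.00206, or 0.0805 without animal 2), and the M-current channel gene Kcnq3, at 2.76 ± 4.77 CPM in C1ql2 neurons, against 267 ± 15.5, 250.1 ± 56.5 and 95 ± 52.4 in Col27a1, Tnnt1 and Calb2 neurons (2.74e-05). Among other sodium channel genes, 1 of 6 rose and 1 fell, with a median log2 fold change of -0.14; the embryonic pore gene Scn3a fell by 3.32 ± 0.60 (0.00223). Of the modulators, 1 of 4 passed: Fgf13 fell by 1.76 ± 0.48 (0.0291; 0.0941 without animal 2 and 0.152 without animal 3).

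Genes listed for fast firing split in C1ql2 neurons, where 3 of 12 rose and 4 fell, against 10.5% of all genes called. Their median log2 fold change was -0.03. The release genes Cplx1 (1.28 ± 0.18, adjusted p = 3.18e-04) and Vamp1 (1.34 ± 0.19, 4.35e-04) rose, and the potassium channel beta gene Kcnab1 fell by 2.60 ± 0.42 (8.93e-04; 0.0635 without animal 3). Syt2, the synaptotagmin of fast release, averaged 83.5 ± 64.8 CPM, against 0.87 ± 1.23, 0.826 ± 1.43 and 26.7 ± 15.6 in Col27a1, Tnnt1 and Calb2 neurons (adjusted p = 0.00293; 0.119 without animal 2). Like Nefh, Cplx1 and Vamp1 were also called in the other clusters: in Col27a1 neurons they rose by 1.09 ± 0.18 (0.00646) and 1.19 ± 0.19 (0.00554), and in Calb2 neurons they fell by 1.59 ± 0.21 (0.00104) and 1.61 ± 0.23 (0.00181). Without animal 3 the Col27a1 calls were at 0.149 and 0.19 and the Calb2 call of Vamp1 at 0.075, and without animal 2 the Col27a1 call of Vamp1 was at 0.142. In the Col27a1 cluster 3 of 12 rose and 0 fell, against 1.24% of all genes called. Their median log2 fold change was 0.50, against 0.15 over all genes. Uchl1 (-0.75 ± 0.11, 0.00281) and Stmn2 (-0.60 ± 0.12, 0.0167) fell there, with calls lost without animal 2 (0.177 and 0.306) or 3 (0.19 and 0.567). In Tnnt1 neurons Kcnq3 rose by 2.44 ± 0.32 (3.27e-04) and Stmn3 fell by 0.92 ± 0.12 (2.25e-04), and both calls held without each animal.

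The same genes were read in thalamic spots, which are separate tissue from the cells, each holding several cells; there fewer cells of a type and less RNA per cell cannot be told apart. The C1ql2 subregion had the highest mean of all subregions for 7 of the 9 genes. In anterior section 5, posterior section 2 and posterior section 6, Nefl had 633, 615 and 970.0 CPM in the C1ql2 subregion, and its highest value in the other subregions was 516 CPM. Nefm had 506, 534 and 656 CPM in the C1ql2 subregion, against 212, 249.8 and 280.2 CPM in the Col27a1, 332, 287 and 249.6 CPM in the Tnnt1, 229, 177 and 331 CPM in the Gda and 121, 93.5 and 113 CPM in the Oprk1 subregion. Nefh had 411, 344 and 453 CPM in the C1ql2 subregion, against 248, 177 and 290.5 CPM in the Col27a1, 190.2, 185 and 175 CPM in the Tnnt1, 161, 139 and 145 CPM in the Gda and 156, 97.4 and 75.4 CPM in the Oprk1 subregion. For the triplet the C1ql2 values overlapped with those of no other subregion. Against the mean of the other 4 subregions the log2 fold change was 0.79 ± 0.11 for Nefl (adjusted p = 3.64e-09), 1.47 ± 0.13 for Nefm (2.81e-19) and 1.31 ± 0.15 for Nefh (3.53e-13), by the same edgeR test over 6137 genes. All 3 calls held without each section. When subregions were rebuilt from a random part of the counts, the C1ql2 subregion was not found again at the same resolution (share of spots in common 0). At resolution 1 it was found again (share 0.615).

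Ina rose with the triplet in C1ql2 spots (0.79 ± 0.13, adjusted p = 3.59e-07), with 529.8, 344 and 581 CPM in the 3 sections, as did Scn1a (0.94 ± 0.20, 1.31e-04) with 174, 154 and 238 CPM. Scn2b rose by 0.42 ± 0.14 (0.0291) but lost the call without section 5 (0.124) or section 6 (0.28). Scn8a, with 166, 102 and 256 CPM, was at 0.48 ± 0.19 (0.0828, or 0.045 without section 2). Scn4b had 79.1, 51.2 and 145 CPM in the C1ql2 subregion, against 24, 27.8 and 36.1 CPM in the Col27a1, 21.7, 37.9 and 16.6 CPM in the Tnnt1, 0, 26.1 and 13.6 CPM in the Gda and 10.1, 19.5 and 6.29 CPM in the Oprk1 subregion, so the C1ql2 values lay above all others. It rose by 2.24 ± 0.35 (1.17e-07) and held without each section. Scn3b had 55.4, 29.3 and 40.7 CPM in C1ql2 spots and fell by 1.21 ± 0.31 (0.00239; 0.144 without section 2). In all, 8 of 9 genes were called in C1ql2 spots, 7 higher and 1 lower, against 14.8% of all genes, and the median log2 fold change was 0.79 over the 9 genes and -5.3e-04 over all. C1ql2 spots were the deepest, with a median of 11090 counts, against 5902 to 7794 in the other tested subregions, and the part of depth in these differences was not tested. Spots also differed in myelin: 8 oligodendrocyte markers summed to 4822 CPM in C1ql2 spots, against 9947, 7840, 4153 and 3825 CPM in Col27a1, Tnnt1, Gda and Oprk1 spots, and 6 cortical glutamatergic markers to 719 CPM in C1ql2 spots, against 184 to 270.0 CPM in the other 4. The part of these in the result was not tested.

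**Figure D3:**
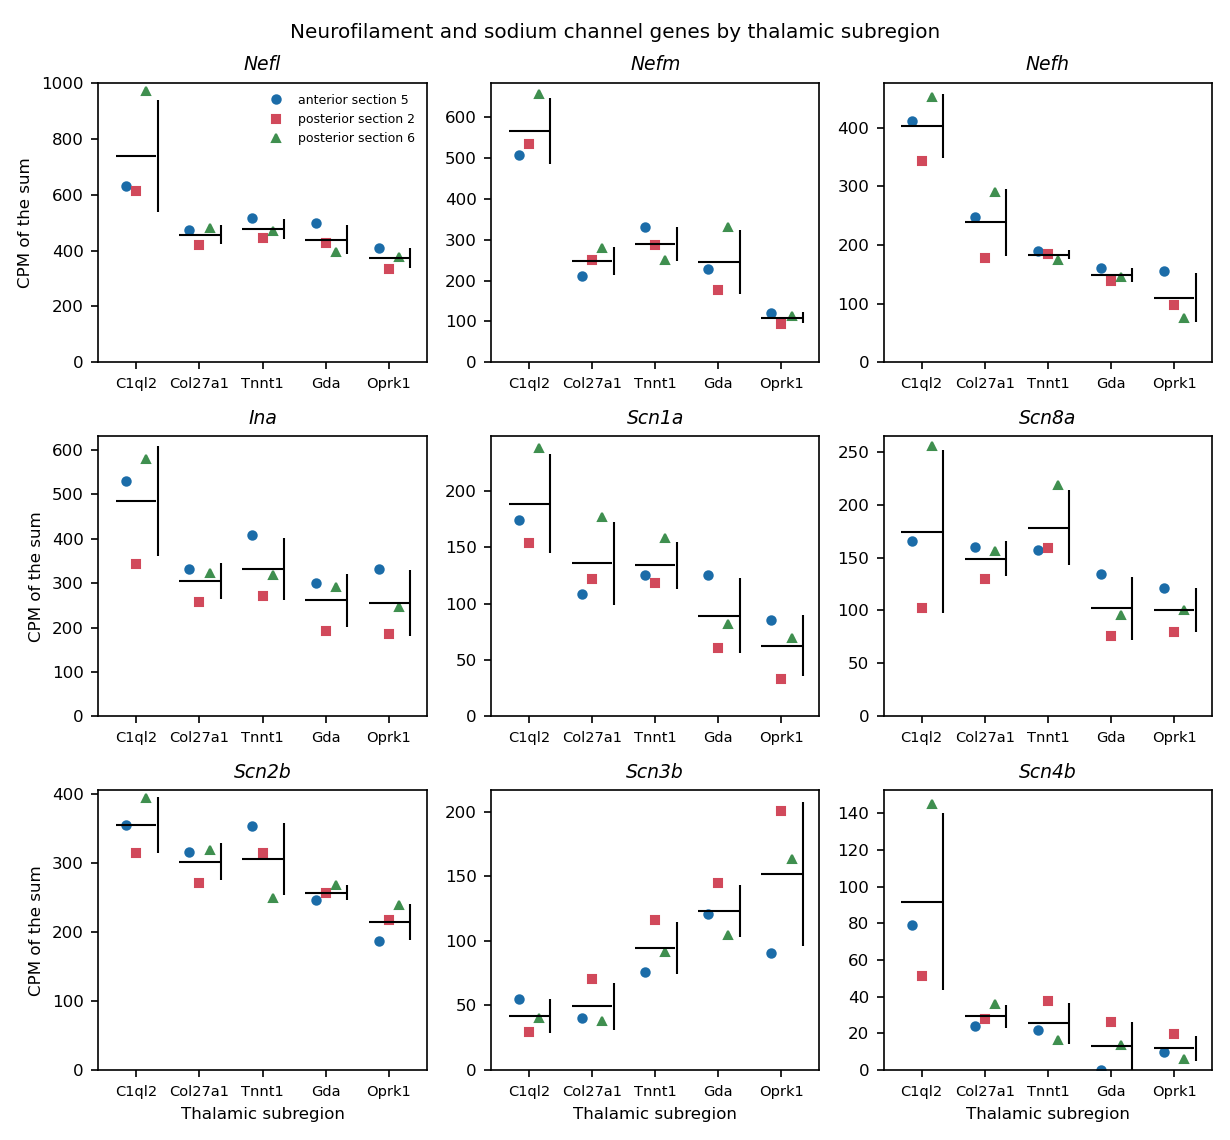
Level of each gene in CPM (y axis, linear from 0) in the summed spots of each section (points) and thalamic subregion (x axis); horizontal lines are means and vertical lines SD over 3 sections. The C1ql2 subregion is highest for the neurofilament triplet and Scn4b in all 3 sections, and the Oprk1 subregion is the lowest of the 5 tested for Nefm and highest on average for Scn3b.

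Oprk1 spots were the other extreme. All 9 genes were called there, against 9.91% of all genes, 8 lower and Scn3b higher. DESeq2 called 7 of the 9. When subregions were rebuilt from a random part of the counts, the Oprk1 subregion was not found again at either resolution. The share of spots in common was 0.43 at the same resolution and 0.469 at resolution 1, where 0.5 was needed. Nefm fell by 1.57 ± 0.15 (adjusted p = 2.30e-17), Scn1a by 1.24 ± 0.20 (3.81e-07), Nefh by 1.14 ± 0.16 (2.32e-09) and Nefl by 0.51 ± 0.11 (1.50e-04). Scn3b rose by 1.13 ± 0.17 (4.19e-08), with 90.7, 201 and 163 CPM in the Oprk1 subregion, against 40.1, 70.4 and 37.8 CPM in the Col27a1, 76.1, 116 and 91.5 CPM in the Tnnt1 and 121, 145 and 104 CPM in the Gda subregion. The Tnnt1 and Gda ranges overlapped that of the Oprk1 subregion. These 5 calls held without each section. Ina, Scn8a, Scn2b and Scn4b fell, with log2 fold changes of -0.47, -0.62, -0.49 and -1.35, and each lost its call without at least 1 section. For Ina that was section 2 (0.0663) or 6 (0.105), for Scn8a section 2 (0.0544) or 6 (0.201), for Scn2b section 5 (0.0853), and for Scn4b any of sections 2, 5 and 6 (0.151, 0.0574 and 0.335).

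The remaining subregions lay between. In Col27a1 spots Nefh rose by 0.39 ± 0.13 (adjusted p = 0.0276; 0.105 without section 5 and 0.767 without section 6) and Scn3b fell by 0.91 ± 0.21 (8.25e-04; 0.075 without section 6), 2 of 9 genes against 10.4%. Scn1a was at 0.42 ± 0.16 (0.0692), or 0.0293 without section 5. Gda spots also carried 929 CPM summed over 6 hypothalamic markers, against 34.5 to 83.5 CPM in the other tested subregions, and the part of these in the result was not tested. In Gda spots 4 of 9 were called, against 7.81%: Scn3b rose by 0.73 ± 0.19 (0.00404; 0.0845 without section 2). Scn8a (-0.55, 0.0319), Nefh (-0.47, 0.0345) and Ina (-0.36, 0.0468) fell; Nefh and Ina lost the call without any 1 section (up to 0.24) and Scn8a without section 2 (0.200) or 6 (0.333). In Tnnt1 spots only Scn8a was called, higher by 0.53 ± 0.15 (0.0146; 0.146 without section 2 and 0.208 without section 6), 1 of 9 against 6.4%. DESeq2 called 0 of 9 in both Gda and Tnnt1 spots, where 6 and 2 had an unadjusted p under 0.05 in edgeR. The triplet, which fell in Tnnt1 neurons, was at -0.04, 0.22 and -0.10 for Nefl, Nefm and Nefh in Tnnt1 spots, none past the threshold.

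**Figure D4:**
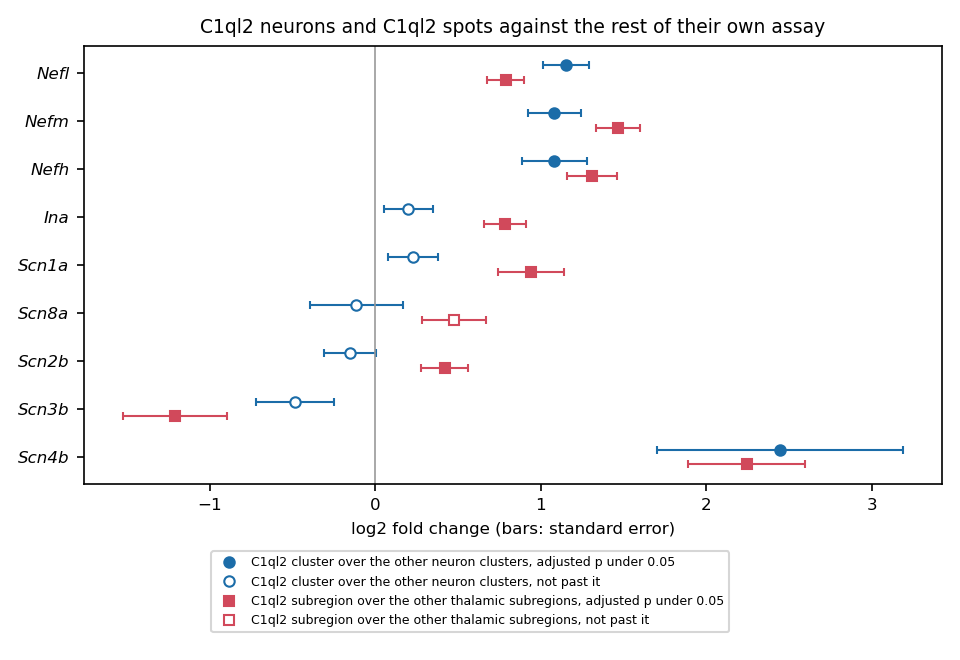
Log2 fold change (x axis, bars are standard errors) of each gene (y axis) in the C1ql2 cluster over the mean of the other neuron clusters (circles) and in the C1ql2 subregion over the mean of the other thalamic subregions (squares); filled marks have an adjusted p under 0.05. Nefl, Nefm, Nefh and Scn4b are higher in both, while Ina, Scn1a, Scn2b and Scn3b pass in the spots and not in the cells.

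Cells and spots thus gave 2 readings of C1ql2 tissue from different material. The triplet and Scn4b passed in both, with log2 fold changes in cells and spots of 1.15 and 0.79 for Nefl, 1.08 and 1.47 for Nefm, 1.08 and 1.31 for Nefh, and 2.45 and 2.24 for Scn4b. The difference between cells and spots was not tested. In C1ql2 spots 14.8% of all 6137 genes were called (490 rose and 420 fell), and the list counts below were not tested against that share. Of axonal cytoskeleton and motor genes in C1ql2 spots, 7 of 17 rose and 2 fell, with a median log2 fold change of 0.19; Stmn3 (0.64 ± 0.09, 4.04e-09), Sncg (2.73 ± 0.42, 6.26e-08) and Tubb3 (0.63 ± 0.10, 9.88e-08) rose as in cells. Among fast-firing genes, 3 of 9 rose and 3 fell, with a median log2 fold change of 0.18, led by Cplx1 (1.94 ± 0.10, 4.31e-42), Vamp1 (2.27 ± 0.15, 3.33e-31) and Kcnab2 (1.68 ± 0.14, 6.94e-21). Among initial segment and node genes, 2 of 14 rose and 3 fell, with a median log2 fold change of -0.04. Cntnap2 (0.98 ± 0.18, 1.09e-05) and Epb41l3 (0.71 ± 0.16, 5.63e-04, or 0.058 without section 6), genes of the paranodal and juxtaparanodal axon, rose, and Kcnq3 (-2.07 ± 0.33, 1.17e-07) and Ank3 (-0.62 ± 0.19, 0.0134, or 0.38 without section 5 and 0.127 without section 6) fell as in cells. In Oprk1 spots Cplx1, Vamp1, Pvalb and Kcnc2, a fast potassium channel gene, fell, with log2 fold changes of -1.54, -1.42, -1.77 and -0.94 (adjusted p at most 2.10e-08). Of the fast-firing list 1 of 9 rose and 6 fell there, against 9.91% of all genes called, with a median log2 fold change of -0.85.

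The thalamic region was compared with the mean of the other 10 regions found in at least 2 sections. Nefh had 220.1, 160.4 and 217 CPM in thalamic spots of sections 5, 2 and 6, against 116, 83 and 99.3 CPM in the region led by Trbc2, 62.7, 52.2 and 70.8 CPM in the region led by Lamp5 and 23.2, 21.3 and 44.2 CPM in the region led by Pde10a and other genes known from the striatum. The Pvalb region, with 199, 187 and 295 CPM, and the Lhx8 region, which carries cholinergic markers, with 208, 171 and 215 CPM, overlapped the thalamic range, and every other region lay below it, the Cabp7 region of 1 section included. Nefh rose by 1.63 ± 0.09 in thalamic spots (adjusted p = 1.95e-22, over 12852 genes). Ina rose by 0.89 ± 0.08 (3.22e-15), with 365, 232 and 330.1 CPM, and Scn2b by 0.77 ± 0.07 (6.16e-14), with 288, 266 and 284 CPM, a level reached also by the Pde10a region (282, 264 and 296 CPM). Scn3b rose by 0.79 ± 0.11 (3.53e-08) and Scn1a by 0.76 ± 0.10 (1.18e-08). In all, 7 of 9 genes were called, against 30.5% of all genes, 6 higher and 1 lower. Of the other sodium channel genes, 5 of 7 rose and 1 fell, with a median log2 fold change of 0.45, led by Scn2a (0.66 ± 0.08, 1.44e-09), and of axonal cytoskeleton and motor genes 13 of 17 rose and 1 fell, with a median log2 fold change of 0.41, led by Uchl1 (1.11 ± 0.06, 2.16e-24) and Tubb3 (1.19 ± 0.07, 2.99e-21). The median over all genes was -0.0027.

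Scn4b was the 1 gene that fell, by 1.41 ± 0.16 (2.27e-10). It had 22.2, 28.9 and 33.2 CPM in thalamic spots, against 832, 737 and 725 CPM in the Pde10a region, where it was among the 10 leading genes, and 13.8, 13 and 11.7 CPM in the region led by Oxt, whose values all lay below the thalamic ones. Scn4b in the C1ql2 subregion, at 91.8 CPM on average, was within the range of regional means outside the Pde10a region, from 12.8 CPM in the Oxt region to 122 CPM in the Trbc2 region.

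Nefl was 0.34 ± 0.07 over the mean of all other regions (3.45e-05), while Nefm was at 0.21 ± 0.09 (0.0883) and Scn8a at 0.17 ± 0.09 (0.155). That mean includes regions led by genes of other cell types, such as the choroid plexus gene Ttr and the fibroblast gene Fmod. The Fmod region still held 908 CPM over 6 cortical glutamatergic markers and 1080 CPM over 8 GABA neuron markers. The thalamic region held 280 and 498 CPM of these. Without section 2, Nefm (adjusted p = 0.0111) and Scn8a (0.0124) passed as higher. Against the mean of the other 7 neuronal regions alone, a comparison added after the data were seen, Nefl was at -0.08 ± 0.07 (0.452), Nefm fell by 0.30 ± 0.09 (0.0121) and Scn8a fell by 0.25 ± 0.09 (0.0281). Scn1a was then at 0.25 (0.0547), and Nefh (1.30, 2.49e-18), Ina (0.53, 8.05e-08), Scn2b (0.43, 1.46e-06) and Scn3b (0.63, 9.91e-06) stayed higher in the thalamus. In that comparison 7 of 9 genes were called, against 26.2% of all genes. In the order of means over regions present in all 3 sections, Nefl was highest in the Lhx8 region (652 ± 6.06 CPM, SD, n = 3), followed by the Trbc2 (577 ± 16.5) and Lamp5 (559 ± 27.8) regions, whose ranges overlapped each other, with the thalamus next at 465 ± 41.1, level with the Lmo3 region at 465 ± 46.4. Nefm was highest in the Lhx8 region (483 ± 60.1) and the Pde10a region (403 ± 92.1), which overlapped, and stood at 253 ± 32.2 in the thalamus. Scn8a was highest in the Lamp5 region (229 ± 22.9), against 138 ± 26.3 in the thalamus.

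**Figure D5:**
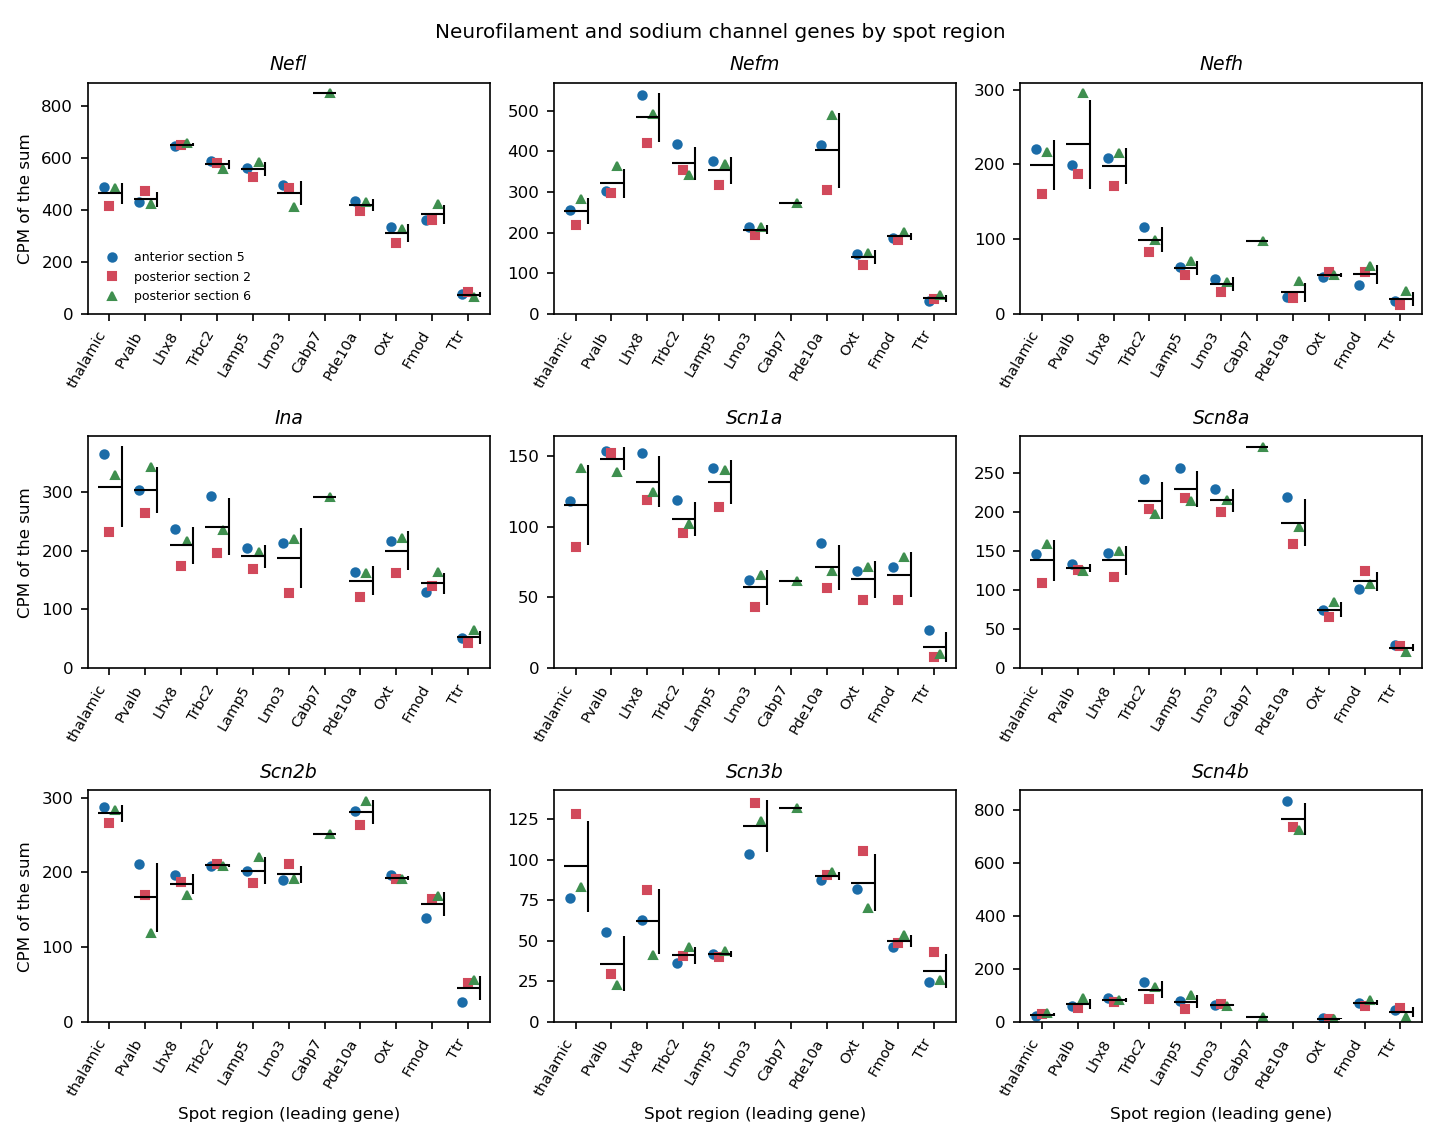
Level of each gene in CPM (y axis, linear from 0) in the summed spots of each section (points) and region (x axis, thalamic region first, other regions by a leading gene); horizontal lines are means and vertical lines SD over sections, the Cabp7 region was found in 1 section, and 1 region is not plotted. Nefh is high in the thalamic, Pvalb and Lhx8 regions and low elsewhere, and Scn4b is far higher in the Pde10a region than in any other.

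The anterior level had 1 section, so there is no test, and intervals are exact Poisson ones that cover counting error only. In thalamic spots Ina had 365 (95% interval 329 to 405) CPM in anterior section 5, against 232 (95% interval 212 to 254) CPM in posterior section 2 and 330.1 (95% interval 303 to 358) CPM in posterior section 6. Scn3b had 76.7 (95% interval 60.5 to 96) CPM in anterior section 5, against 128 (95% interval 113 to 145) CPM in posterior section 2 and 83.4 (95% interval 70.3 to 98.2) CPM in posterior section 6. For none of the 9 genes did the anterior interval lie outside those of both posterior sections. Against posterior section 2 alone it lay outside for 4 genes, above it for Nefl, Nefh and Ina and below it for Scn3b, and against posterior section 6 alone for 0. In the C1ql2 subregion Nefl had 633 (95% interval 502 to 787) CPM in anterior section 5, against 615 (95% interval 490.4 to 761) CPM in posterior section 2 and 970.0 (95% interval 828 to 1129) CPM in posterior section 6, so the posterior sections differed from each other more than the anterior one differed from section 2.

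Across cells, the relation of the triplet genes varied between the 9 sets of 1 animal and cluster with at least 20 cells (Pearson r of log counts per 10000, which share each cell's depth). The median r was 0.26 for Nefl with Nefm (range 0.11 to 0.93), 0.33 for Nefm with Nefh (range -0.07 to 0.64) and 0.23 for Nefl with Nefh (range 0.02 to 0.51). For Nefh with Scn3b it was -0.21 (range -0.41 to 0.21). The highest r of each triplet pair came from the 27 C1ql2 cells of animal 3, where Nefl and Nefm had r = 0.93. Pairs outside the triplet were also high in that set, such as Nefm with Scn1a (0.85) and Ina with Scn8a (0.80). Pairs with Scn3b or Scn4b lay between -0.33 and 0.36. Nefl, Nefm, Ina, Scn1a, Scn8a and Scn2b each had a count in 88.9% of those cells. Whether the same cells lacked all of them was not tested.

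Across the 12 sums of animal and neuron cluster, the genes outside the 9 that were most like the mean of the triplet were Sema5a (0.97), Atp1b1 (0.94), Epdr1 (0.94), Fbxo2 (0.94) and Parva (0.93), among 7502 genes of at least 20 CPM, with Pearson r in brackets. Across the 34 sums of section and region they were Fndc5 (0.94), Cplx1 (0.94), Rell2 (0.94), Cend1 (0.93) and Clec2l (0.93), among 7659 genes. Cplx1 is the complexin that rose with Nefh in neurons, and Atp1b1 encodes a sodium pump subunit. For Scn4b the most alike across section and region were 9430020K01Rik (0.86), Adora2a (0.85), Ivns1abp (0.84), Rgs20 (0.83) and Pmepa1 (0.83), and Adora2a, the adenosine receptor gene of the striatum, was like Scn4b among the leading genes of the Pde10a region. Across neuron sums they were Gm11474 (0.97), Ndufa3 (0.94), Rpl22 (0.94), Adcy2 (0.94) and Alkbh7 (0.93), where Scn4b rests on few counts. Sums share animals or sections, and r is given as a description.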

How the data were processed

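RNA was counted in hand-picked single cells and in Visium spots of 3 sections. The authors deposited raw counts per gene and well and raw counts per gene and spot, whole numbers in both tables. Each deposited well carries an animal number and each deposited spot a section, which are codes of another unit than counts. The submitters' processing notes name Seurat, Space Ranger and the builds NCBIM37 and mm10. The aligner, and whether molecules or reads were counted, are not given in the sources used here. Per the labels, the tissue was cut at 10 µm and permeabilization took 24 min.

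Of 1344 wells, 1216 held a cell, 912 of these had at least 1000 genes with a count, and 904 were kept after leaving out wells recorded under another animal's source. No label ties the 14 single-cell samples to plates, so the animal number was the replicate. Non-gene rows (103, with 44.1% of counts in kept cells) were left out. Doublets were not called, and alternatives without cells of mixed markers were run. Counts were scaled to 10000, logged, reduced to 2000 variable genes without the 9 genes and their relatives and 30 principal components, and grouped by the Leiden method (15 neighbours, resolution 0.5; Python 3.11.15, scanpy 1.11.5, igraph 0.11.9). Sums of at least 5 cells or spots entered edgeR 4.0.16 under R 4.3.3, with TMM, filterByExpr, the quasi-likelihood F test and the animal or section as a block, with Benjamini-Hochberg adjustment and a threshold of 0.05. DESeq2 1.42.0 was an alternative. The block pairs sums of the same animal or section: residuals had a median correlation of 0.0785 within an animal, against -0.0498 otherwise, and of 0.0828 and 0.134 within a section for regions and subregions, against -0.0570 and -0.0695 otherwise. The test was run on simulated counts with 200 genes changed 4-fold: 54.0% were recovered in the cell design (11646 genes), and 100% in both spot designs (12007 and 5966 genes). CPM are counts over all gene counts of a sum, scaled to 1000000. Groups rest on expression, not on anatomy. With the block, p-values rest on how differences between groups vary across animals, or across sections that may share an animal. The 9 genes and all lists were chosen with earlier results of these data known. All 9 are named; list genes are named where an adjusted p passed 0.05, at most 4 per list and comparison. Genes like a pattern are the 5 with the highest Pearson r of log2(CPM + 1) among genes of at least 20 CPM. Positions and promoters come from RefSeq tables in GRCm38.p6. A few genes, and 1 spot region in the plot by region, are not reported here.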

Additional observations from a re-analysis of the deposited data

Results flagged for a closer look

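Wells without a cell carried a few counts of these genes. In 56 wells with spike-in RNA (ERCC) and 79309 gene counts in all, Nefm had 7 counts, above the 3 that a count of 0 allows. In 56 wells labelled qRNA, with 4367024 counts, Nefl had 4, Nefm 4, Scn1a 4 and Scn4b 5, also above 3. In CPM the ERCC wells held 88.3 of Nefm, at most 37.8 of the other 8 genes and 0 of Scn4b. In the qRNA wells there was at most 1.14 CPM of any of the 9 genes, against 35.8 to 44.1 CPM of Scn4b in C1ql2 neurons and 0 to 16.5 CPM in the other neuron clusters.

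Scn1a lay on opposite sides of the other groups in Tnnt1 neurons and Tnnt1 spots. Its mean log2 difference from the other clusters was -0.20 in cells, lower in 3 of 3 animals, and from the other subregions 0.33 in spots, higher in 3 of 3 sections. The difference between cells and spots was not tested, and neither passed its own test (adjusted p = 0.705 in cells and 0.252 in spots, edgeR).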

How the results depend on the processing

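Calls in neurons changed with the number of animals, and no called log2 fold change of the 9 genes in neurons changed sign. With 2 animals left, Nefl in Tnnt1 neurons was at -0.65 without animal 2 and -0.64 without animal 3, against -0.67 with all. Scn3b there was at 0.46 without animal 2, against 0.86. Calls of the 9 genes over the 4 clusters numbered 12, and 7 with no replicate block; leaving out 1 animal gave 5 to 21, the highest without animal 1. Over cluster pairs there were 15, and 5 to 36 with 1 animal left out. Calls over all genes were 2708 for clusters (5019 in DESeq2, 600 to 8350 with 1 animal left out) and 3606 for pairs (7290 in DESeq2, 734 to 12225). In subregions the 9 genes gave 24 calls, 15 in DESeq2, 15 with no replicate block and 14 to 19 with 1 section left out. All genes there gave 3026 calls, 1546 in DESeq2, 1558 with no replicate block and 1791 to 2108 with 1 section left out. Without the block the Nefh calls of Col27a1, Tnnt1 and Calb2 neurons and the Nefm and Scn3b calls of Tnnt1 neurons were lost, while every C1ql2 neuron call held. In the thalamic region all counts stayed within 1.5 times. Against the neuronal regions only, chosen after the data were seen, Nefl (-0.078), Nefm (-0.30) and Scn8a (-0.25) changed sign. That comparison leaves out of the mean the regions led by markers of other cell types, the Fmod region with its neuron markers among them. Anterior intervals lay outside for 0 of 9 genes, and for 0 to 4 with 1 posterior section left out, the 4 without section 6. Nefl and Nefm in C1ql2 neurons and Scn3b in Col27a1 and Calb2 neurons passed in 12 of 12 alternatives. In C1ql2 spots Nefl, Nefm, Nefh, Ina and Scn1a passed in 9 of 9. These 9 leave out the regrouping from fewer counts at resolution 0.5, where that subregion was not found again. Of all log2 fold changes recomputed, 477 kept direction and side of the threshold, 116 lost the call, 81 gained one and 3 changed sign; where a call was lost, the cause was not tested. With subregions rebuilt from a random part of the counts, 0 of 5 were found again at resolution 0.5. At resolution 1, 2 of 5 were found again, the C1ql2 and Col27a1 subregions. With the 9 genes kept in the grouping, 4 of 5 were found again, all but the Tnnt1 subregion. No total is given for these settings.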

Other observations

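The region led by Cabp7 (60 spots) was found in section 6 only and entered no test. It held 852 CPM of Nefl, 274 CPM of Nefm, 97.5 CPM of Nefh and 293 CPM of Ina, with 283 CPM of Scn8a, 132 CPM of Scn3b and 18.9 CPM of Scn4b. Its Nefl, Scn8a and Scn3b values were higher than the mean of any other region. A further group of 8 thalamic spots, led by Tac2, was too small to test. In the 1 section with at least 5 of these spots it had 209.7 CPM of Nefl, 96.8 CPM of Nefh and 0 CPM of Scn4b.

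Oligodendrocyte-like cells held counts of most of the 9 genes. In animals 1, 2 and 3, with 2, 11 and 14 cells, Nefl had 186, 322 and 222 CPM, Nefm 101, 1001 and 708 CPM and Nefh 5.31, 383 and 379.6 CPM. Scn3b had 388, 0 and 37.5 CPM.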
